A study of Brassica rapa with 6 samples.

Results

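The CYP81F genes encode cytochromes P450 that hydroxylate the ring of indole glucosinolates, the tryptophan-derived members of the sulfur-containing defence compounds of cabbages. Members were taken as the genes whose annotated transcript is described as cytochrome P450 81F, which gave 9 genes of the 45517 with a gene value. Their linear RNA was measured in wild type Chinese cabbage (Brassica rapa), in 3 libraries of the leaf and 3 of the petiole, the stalk that carries the leaf. The plants were grown under ordinary greenhouse conditions, and the libraries were made from total RNA after ribosomal RNA was removed. Age, cultivar and treatment are not given in the labels, and nothing says that the libraries came from separate plants, so the p-values measure only the spread between these libraries, which may be technical.

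Glucosinolates are stored in the intact plant and are split by myrosinases when tissue is damaged. Indol-3-ylmethyl glucosinolate is made first, through CYP79B enzymes that convert tryptophan and a chain of further enzymes that ends with a sulfotransferase. CYP81F enzymes then add a hydroxyl group to its indole ring, and O-methyltransferases cap that group. In Arabidopsis thaliana, CYP81F1, CYP81F2 and CYP81F3 act at position 4 of the ring, whereas CYP81F4 acts on the ring nitrogen at position 1. CYP81F2 of that species is known for its part in defence against fungi and aphids.

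The members lay on 6 chromosomes, and 4 of them stood together on chromosome A01. Positions are given as in the deposited table, whose genome build is not given in the sources used here. BraA01g001460.3C (A01:730999-732750, described as 81F1), BraA01g001470.3C (A01:735808-736704, 81F1-like), BraA01g001490.3C (A01:744013-745766, 81F1-like) and BraA01g001500.3C (A01:752745-753641, 81F3) followed each other on the minus strand within 22643 bases. A single other annotated gene stood between them, a glycosyltransferase family 92 gene (BraA01g001480.3C) with 0 counts in all 6 libraries. The descriptions of 3 members named 81F2: BraA10g015140.3C (A10:12077006-12079203, 81F2), BraA02g012430.3C (A02:6086889-6088671, 81F2-like) and BraA03g012530.3C (A03:5376814-5379123, 81F2-like). The remaining members were the 81F1-like genes BraA08g021490.3C (A08:16272275-16273549) and BraA09g027130.3C (A09:18475571-18476897). Their annotated transcripts have 1 to 4 exons and 462 to 1506 bases.

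The description 81F1-like of BraA01g001490.3C did not match its name in RefSeq. In the RefSeq gene table of assembly CAAS_Brap_v3.01, the gene with exactly the same start and end on A01 carries the synonym CYP81F4-1. Positions in that table and in the deposited table share a frame: of 5204 genes whose description names a RefSeq symbol, 4860 (93.4%) overlapped the span of that symbol. It was the only RefSeq gene with a CYP81F synonym, so the other 8 members keep their deposited description. BraA01g001490.3C is therefore named below by its identifier.

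Depth was similar across libraries, with 111518411 to 132861243 estimated counts each, of which gene values held 59.2% to 63.6% in leaf and 76.3% to 78.3% in petiole. Levels compared between tissues are CPM, gene counts scaled to library size with TMM factors, and levels compared between genes are FPKM, which are per length. Of 27984 genes with a mean of at least 10 counts, 62.4% were called different between the tissues by edgeR's quasi-likelihood test at an adjusted p below 0.05, 31.4% higher and 31.0% lower in petiole. For 71.2% the libraries of the tissues did not overlap. Across genes, the correlation of log2 levels was 0.97 to 0.974 within a tissue and 0.811 to 0.817 between the tissues. Green-cell markers (chlorophyll a-b binding proteins and Rubisco small chains) stood at a summed 8661 to 9024 CPM in leaf and 548 to 598 CPM in petiole. Of 28 tested, 27 were lower in petiole, or 25 of 26 without 2 genes at 0 in petiole. All 10 tested xylem markers were higher in petiole, with sums of 66.7 to 75.6 CPM in leaf and 186 to 236 CPM in petiole, while a cellulose synthase A 8-like gene and a xylem cysteine proteinase 2-like gene were at 0 in both tissues. In bulk tissue, fewer cells of a type and less RNA per cell cannot be told apart.

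In petiole, 1 CYP81F gene rose from near 0 to be the leading member, while the 81F2 gene that led in leaf rose 1.35-fold. Of the 9 members, 6 passed the filter on low counts, and 3 of these 6 were called higher in petiole (background 31.4% of tested genes). None was called lower by edgeR (background 31.0%), with 0 falls at an unadjusted p below 0.05. DESeq2 also called 0 lower, with 1 at an unadjusted p below 0.05. The petiole libraries lay above all leaf libraries in 4 of the 6 (background 35.9%) and below them in 1 (background 35.3%). The 81F1-like gene BraA08g021490.3C passed the filter only through petiole and so had to differ. Without it, 2 of 5 were called higher, and petiole lay above leaf in 3 of 5 and below in 1. With so few members, these shares are given as a description.

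**Figure D1:**
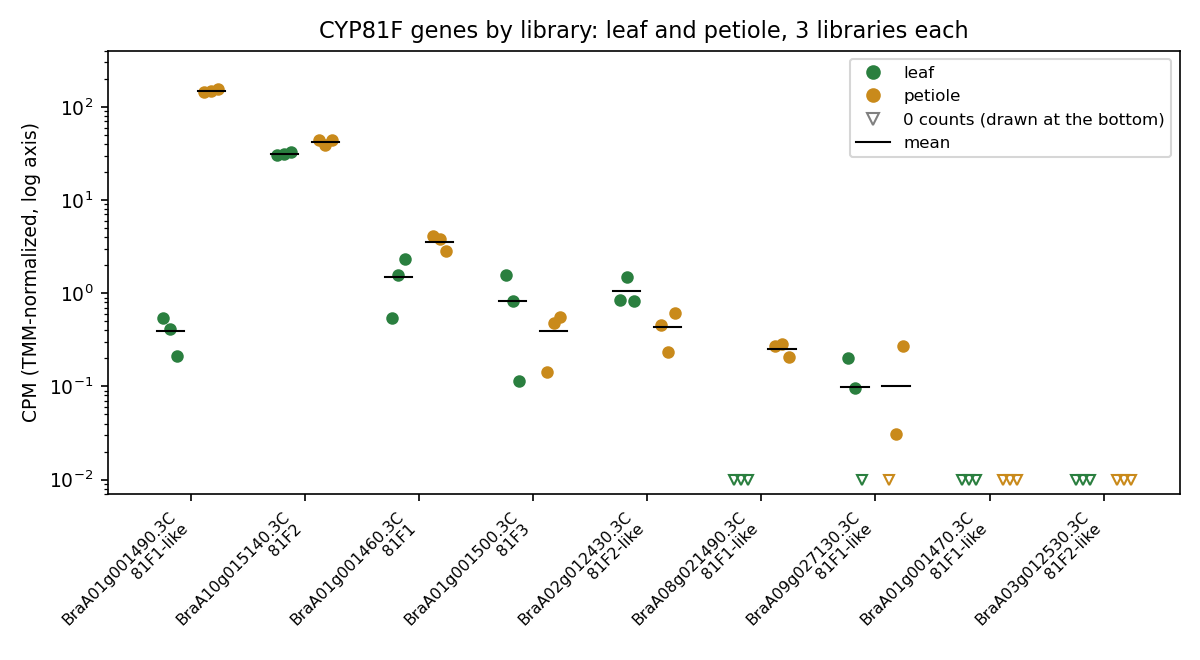
Level of each CYP81F gene in each library, as TMM-normalized CPM on a log axis, with the mean of the 3 libraries of a tissue as a black line and libraries at 0 counts drawn as open triangles at the bottom. BraA01g001490.3C lies between 0.213 and 0.547 CPM in leaf and between 145 and 157 CPM in petiole, while BraA10g015140.3C stays between 30.6 and 44.1 CPM.

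BraA01g001490.3C had 38, 30 and 15 counts in the leaf libraries and 15079, 14351 and 14434 in the petiole libraries. This corresponded to 0.547, 0.411 and 0.213 CPM in leaf and to 145, 146 and 157 CPM in petiole. Every petiole library was far above every leaf library, and the spread within each tissue was small beside the gap. The mean went from 0.39 ± 0.168 to 149 ± 6.47 CPM (SD, n = 3). This was a rise of 8.58 on the log2 scale, or 382-fold, with an SE of 0.211 on the log2 scale (edgeR adjusted p = 2.47e-08). Only 0.883% of the tested genes had a fold change as high or higher. By FPKM the gene ranked 1340 of 27984 in petiole and 25838 in leaf. All of its counts came from the annotated transcript. Leaving out any library moved the log2 fold change only between 8.28 and 8.89.

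BraA10g015140.3C, the 81F2 gene, had 2127, 2256 and 2287 counts in leaf and 4588, 3841 and 4024 in petiole. Scaled to depth, it stood at 30.6, 30.9 and 32.5 CPM in leaf and at 44.1, 39.2 and 43.7 CPM in petiole. The tissues did not overlap, but the lowest petiole library was close above the highest leaf library. The gene rose from 31.4 ± 1.02 to 42.3 ± 2.73 CPM (SD, n = 3), by 0.43 on the log2 scale (SE 0.0735; edgeR adjusted p = 0.00117). On the log2(FPKM + 1) scale its change was 1.09 by limma, or 0.61 relative to the median gene, which was 0.48 higher in petiole on that scale. From the annotated transcript alone the change was 0.20 and was not called (edgeR adjusted p = 0.939).

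Most reads of BraA10g015140.3C belonged to an assembled transcript (MSTRG.29579.1) that shares a splice junction with the annotated one but is not spliced identically. MSTRG.29579.1 also extends past the annotated transcript at both ends, with 1624 bases against 1362. This transcript had 1865, 2256 and 1917 counts in leaf and 4162, 3473 and 3797 in petiole, 83.8% to 100% of the gene's counts. It was called higher in petiole in the test over 52982 isoforms (0.52 on the log2 scale, SE 0.0994; edgeR adjusted p = 0.0145). The background over isoforms was 29.5% called, 15.4% higher and 14.1% lower. Without leaf replicate 1 the change was 0.48 and missed the threshold (edgeR adjusted p = 0.0527), as it did with the replicate numbers as a block (0.52, edgeR adjusted p = 0.0862). The annotated transcript had 262, 0 and 370 counts in leaf and 426, 368 and 227 in petiole. Its libraries overlapped between the tissues, with leaf replicate 2 at 0, and its change of 0.25 (SE 1.71) was not called (edgeR adjusted p = 0.934).

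BraA08g021490.3C, an 81F1-like gene, had 0 counts in every leaf library and 28, 28 and 19 counts in petiole. Its petiole level was 0.254 ± 0.0418 CPM (SD, n = 3), at least 18-fold above the floor of 3 counts over the leaf libraries. The difference was called (edgeR adjusted p = 0.0091), but at a level among the lowest of the tested genes, with 92.6% of them at or above it in petiole by FPKM. With the replicate numbers as a block the call was lost (edgeR adjusted p = 0.09). Since it passed the filter only through petiole, the call supports nothing about the members as a group.

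BraA01g001460.3C, described as 81F1, had 38, 116 and 163 counts in leaf and 423, 371 and 263 in petiole. At 0.547, 1.59 and 2.32 CPM in leaf and 4.07, 3.79 and 2.86 CPM in petiole, the libraries of the tissues did not overlap. Its change of 1.27 on the log2 scale (SE 0.486) missed the threshold (edgeR adjusted p = 0.052). DESeq2 called it (1.27, adjusted p = 0.0182), as did edgeR without leaf replicate 3 (1.74, adjusted p = 0.0208). The leaf libraries differed from each other by more than the gap to the petiole libraries.

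BraA02g012430.3C, an 81F2-like gene, was the member with every petiole library below every leaf library. It had 59, 110 and 58 counts in leaf and 48, 23 and 57 in petiole. Its mean was 1.06 ± 0.386 CPM in leaf and 0.438 ± 0.193 CPM in petiole (SD, n = 3). The change of -1.27 on the log2 scale (SE 0.594) was not called (edgeR adjusted p = 0.0967).

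BraA01g001500.3C, the 81F3 gene, changed sign with the transcripts counted. Its annotated transcript of 1 exon had 108, 60 and 8 counts in leaf and 15, 47 and 51 in petiole, which overlap. From that transcript the change on the log2 scale was -1.08 (SE 0.969; edgeR adjusted p = 0.362). A transcript of 2 exons that overlaps it on the same strand (MSTRG.118.1, A01:752119-753671) is left out of gene values and had 0, 1 and 57 counts in leaf and 173, 111 and 74 in petiole. With both summed, the counts were 108, 61 and 65 in leaf and 188, 158 and 125 in petiole, and the change was 0.53 (SE 0.391; edgeR adjusted p = 0.264). Neither sum was called, so no direction is given for this gene.

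The other 3 members were hardly detected. BraA09g027130.3C had 14, 7 and 0 counts in leaf and 0, 3 and 25 in petiole, under the filter. BraA01g001470.3C and BraA03g012530.3C had 0 counts in every library, which allows a level of up to 0.0288 to 0.0432 CPM per library at 3 counts, for counting error only. Members on A01 that lie side by side may share sequence, and how the deposited counts split reads between such copies was not tested.

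Different genes led the family in the tissues. Summed over the 9 members, FPKM were 9.02, 9.15 and 9.29 in leaf and 86.5, 84.9 and 90.4 in petiole. On the CPM scale the sum went from 35.2 ± 0.827 to 196 ± 7.63 (SD, n = 3), 5.58-fold. BraA01g001490.3C held 1.58%, 1.19% and 0.583% of the family FPKM in the leaf libraries and 75.2%, 77.2% and 77.0% in the petiole libraries. BraA10g015140.3C held 84.6%, 83.8% and 88.4% in leaf and 21.6%, 19.5% and 20.1% in petiole. The 81F2 gene led in every leaf library and BraA01g001490.3C in every petiole library. From annotated transcripts alone the 81F2 gene was at 0 in leaf replicate 2 and did not lead there. Without BraA01g001490.3C the CPM sum was 34.8 ± 0.993 in leaf and 47.1 ± 2.71 in petiole (SD, n = 3), a ratio of 1.35. In FPKM, which run higher in petiole, the same ratio was 2.27. The FPKM ratio of BraA01g001490.3C to BraA10g015140.3C was 0.0187, 0.0142 and 0.00659 in the leaf libraries. It was 3.48, 3.96 and 3.83 in the petiole libraries, so the tissues did not overlap. The means of the log2 ratio differed by 8.28 (two-sided exact permutation p = 0.1, and no smaller p is possible with 3 libraries a tissue).

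**Figure D2:**
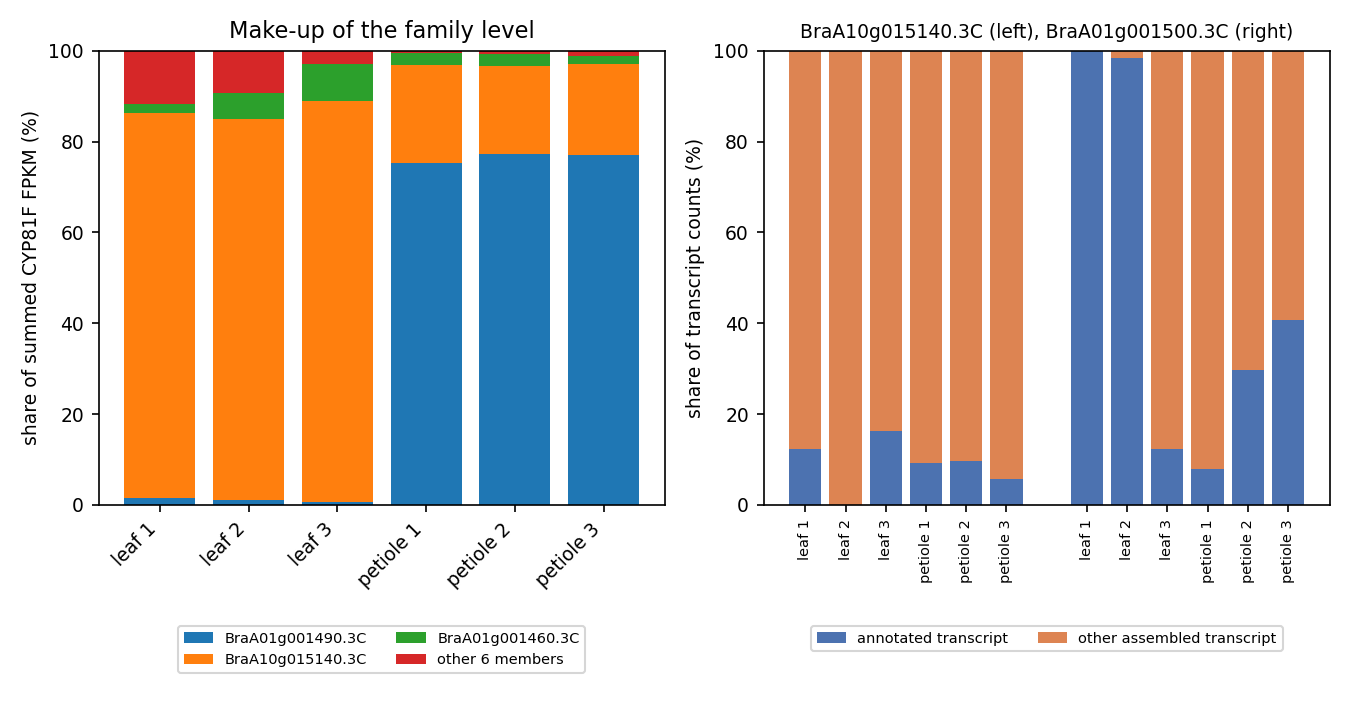
Left, share of the summed CYP81F FPKM held by each of the 3 leading members and by the other 6 together, in percent, for each library; right, share of the transcript counts of BraA10g015140.3C and BraA01g001500.3C held by the annotated and by the other assembled transcript, in percent, for each library. BraA10g015140.3C fills 83.8% to 88.4% of the left bars in leaf, and BraA01g001490.3C fills 75.2% to 77.2% in petiole.

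Below the leading genes, the order was partly unresolved. In leaf, BraA10g015140.3C at 7.84 ± 0.322 FPKM (SD, n = 3) was followed by BraA01g001460.3C at 0.487 ± 0.291, BraA01g001500.3C at 0.365 ± 0.317 and BraA02g012430.3C at 0.285 ± 0.107 FPKM, and the ranges of the last 3 overlapped. BraA01g001490.3C had a lower mean in leaf, at 0.102 ± 0.0448 FPKM, within the range of BraA01g001500.3C. In petiole, BraA01g001490.3C at 66.7 ± 2.50, BraA10g015140.3C at 17.8 ± 1.1 and BraA01g001460.3C at 1.98 ± 0.362 FPKM (SD, n = 3) were separated from each other and from the rest. The other detected members lay between 0.0886 and 0.292 FPKM on average, and their ranges overlapped. No circRNA of the 886 in the deposited table had a member as host gene or overlapped one.

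The enzymes that make the substrate of CYP81F were higher in petiole almost throughout. Of 15 tested core indole glucosinolate genes, 14 rose and 1 fell (93.3% and 6.67%, beside 31.4% and 31.0% of all tested genes). Their median change was 2.35 on the log2 scale, beside 0.01 over all tested genes. The 15 were 4 CYP79B, 3 glutathione S-transferase F9 or F10, 4 gamma-glutamyl peptidase, 2 SUR1, 1 UGT74B1 and 1 sulfotransferase 16 genes. How far these steps serve the indole branch alone was not tested, and the aliphatic branch below had a median of 2.84. All 4 CYP79B genes rose, which commit tryptophan to the pathway. Among them, a gene described as tryptophan N-monooxygenase 2 (BraA04g016310.3C) went from 1.61 ± 0.470 to 104 ± 9.25 CPM (SD, n = 3; log2 fold change 6.0, edgeR adjusted p = 1.06e-07), and a CYP79B1-like gene (BraA03g061220.3C) from 1.54 ± 0.595 to 41.1 ± 4.6 CPM. Cytosolic sulfotransferase 16 (BraA07g038080.3C), which adds the final sulfate, rose from 3.47 ± 1.06 to 73.1 ± 6.65 CPM. The 1 fall was a SUR1 lyase gene (BraA09g012050.3C), from 5.34 ± 2.41 to 0.867 ± 0.150 CPM. No description matched CYP83B1, which was not analysed here.

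**Figure D3:**
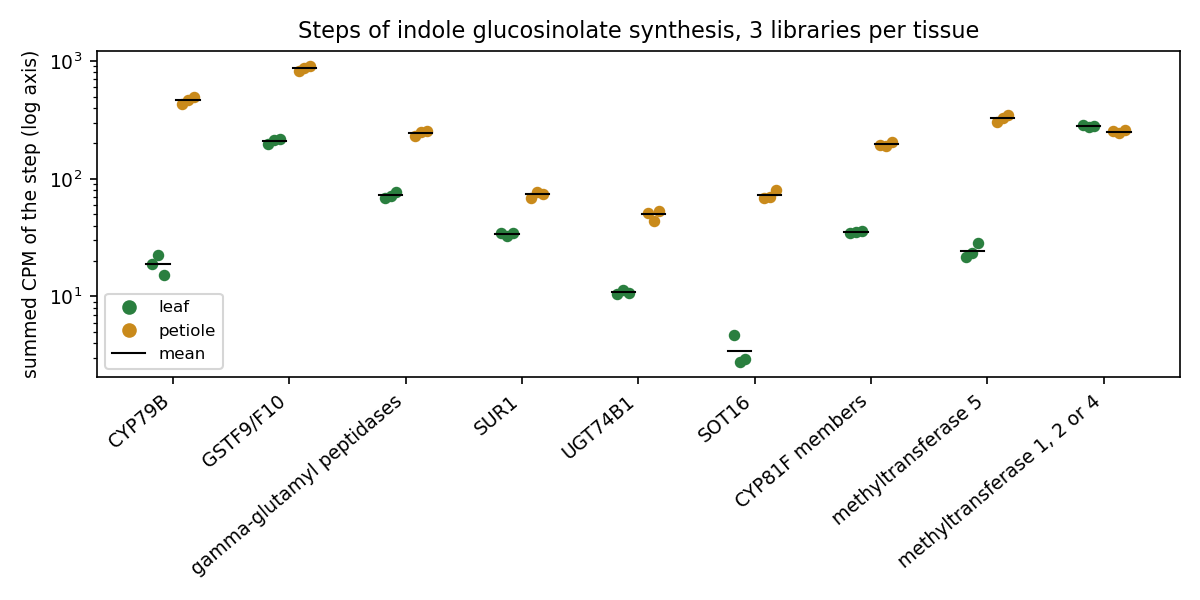
Summed CPM of the genes of each analysed step of indole glucosinolate synthesis in each library, on a log axis, with the mean of 3 libraries per tissue as a black line. CYP83B1 is not among the steps. Petiole lies above leaf at each step shown except for methyltransferases described as 1, 2 or 4, at 279 CPM in leaf and 251 CPM in petiole on average. The SUR1 sum joins 1 gene that rose and 1 that fell.

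Methyltransferases act after CYP81F on its products. In A. thaliana, IGMT5 methylates the product hydroxylated at position 1, and its relatives IGMT1 and IGMT2 act on the one hydroxylated at position 4. Of 9 tested genes described as indole glucosinolate O-methyltransferases, 6 rose and 2 fell (median 1.95 on the log2 scale). These were 66.7% and 22.2%, beside 31.4% and 31.0% of all tested genes. Without a gene at 0 in leaf, which passed the filter only through petiole, 5 rose and 2 fell of 8 (median 1.47). Both genes described as methyltransferase 5 rose. BraA07g040330.3C went from 20.6 ± 2.70 to 255 ± 15.5 CPM (SD, n = 3; log2 fold change 3.63, edgeR adjusted p = 4.58e-08), and BraA07g027260.3C from 3.92 ± 0.830 to 72.3 ± 7.16 CPM (4.2, edgeR adjusted p = 2.55e-07). Of the 7 tested genes described as 1, 2 or 4, 4 rose and 2 fell, and 1 of the rises (BraA06g043210.3C) passed the filter only through petiole. The 2-like gene BraA07g015340.3C fell from 202 ± 1.49 to 103 ± 6.41 CPM (-0.97, edgeR adjusted p = 1.41e-06), and a 4-like gene (BraA06g016580.3C) from 8.09 ± 0.953 to 3.78 ± 0.522 CPM. The call of the latter was lost on the log2(FPKM + 1) scale (-0.25, limma adjusted p = 0.0969). A further 4-like gene (BraA06g043210.3C) was at 0 in leaf and at least 33.8-fold higher in petiole, at 0.476 ± 0.135 CPM.

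Genes described as regulators of the pathway, transcription factors and IQ-DOMAIN 1 proteins, were mixed. Of 35 tested regulators 18 rose and 6 fell (median 0.77), or 17 and 6 of 34 (median 0.69) without a gene at 0 in leaf. The 68.6% called was close to the 62.4% over all genes, and 15 of the 35 are described as IQ-DOMAIN 1, a name the descriptions give to 19 genes. MYB34, MYB51 and MYB122 are known in A. thaliana as activators of indole glucosinolate genes. Of 6 tested MYB34 genes, 4 rose and 1 fell, and 1 of the rises (BraA09g006740.3C) passed the filter only through petiole. BraA03g043830.3C, described as MYB34, went from 0.248 ± 0.0864 to 75.2 ± 5.52 CPM (SD, n = 3; log2 fold change 8.23, edgeR adjusted p = 1.81e-08). A second MYB34 gene (BraA02g042740.3C) rose from 4.47 ± 1.28 to 50.6 ± 1.12 CPM. BraA09g006740.3C (MYB34-like) was at 0 in leaf and at least 81.4-fold higher in petiole, and BraA02g005970.3C (MYB34-like) was lower in petiole (-1.39), a call lost on the log2(FPKM + 1) scale (limma adjusted p = 0.0859). The 2 tested MYB51 genes moved in opposite directions, and 1 of 2 tested MYB122 genes rose. The largest falls in the list were genes described as IQ-DOMAIN 1, BraA06g025020.3C (-3.83) and BraA04g007080.3C (-2.22). From the annotated transcript alone BraA04g007080.3C was not called (-0.42, edgeR adjusted p = 0.876).

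Genes of precursor supply, of transport and of the electron donors of P450 enzymes are set beside all tested genes, of which 31.4% were called higher and 31.0% lower. Of 16 tryptophan synthesis genes 10 rose and 2 fell (75.0% called beside 62.4% of all genes; median 0.61), or 9 and 2 of 15 (median 0.44) without a gene at 0 in leaf. A tryptophan synthase beta chain 1-like gene (BraA08g031570.3C) rose by 4.06 on the log2 scale and its neighbour BraA08g031560.3C was at 0 in leaf and at least 68.7-fold higher in petiole, while another gene with the same description (BraA09g011320.3C) fell from 42.5 ± 5.35 to 12.7 ± 1.26 CPM (SD, n = 3). An anthranilate synthase beta subunit gene (BraA09g037560.3C) rose by 2.51 (-0.044 from the annotated transcript alone), and indole-3-glycerol phosphate synthase (BraA06g035740.3C) fell by 1.55. Of the 9 tested transport and conjugation genes, 5 rose and 2 fell (77.8% called; median 0.55). A gene of the NRT1/PTR group that holds the glucosinolate importers (BraA06g026290.3C) rose from 174 ± 2.14 to 449 ± 7.14 CPM. The falls were BraA06g019030.3C (-0.53) and BraA08g028470.3C (-0.51) of the same group, and both turned positive on the log2(FPKM + 1) scale (0.27 and 0.12), though not relative to the median gene there (-0.21 and -0.36). The call of BraA08g028470.3C was lost by DESeq2 (adjusted p = 0.0593) and without any single library (edgeR adjusted p from 0.064 to 0.111). Of 22 P450 partner genes 16 rose and 3 fell (86.4% called; median 0.92), with a cytochrome B5 gene (BraA05g001180.3C) at 5.79 and the NADPH-cytochrome P450 reductase 2 gene BraA08g018180.3C at -3.78. Besides reductases and cytochrome b5, this list caught 6 genes of b5 reductases and desaturases, and all 6 were higher in petiole. The 6 tested NADPH-cytochrome P450 reductase genes had 3 higher and 2 lower (median 0.22). The 10 tested cytochrome b5 genes had 7 higher and 1 lower (median 1.135).

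**Figure D4:**
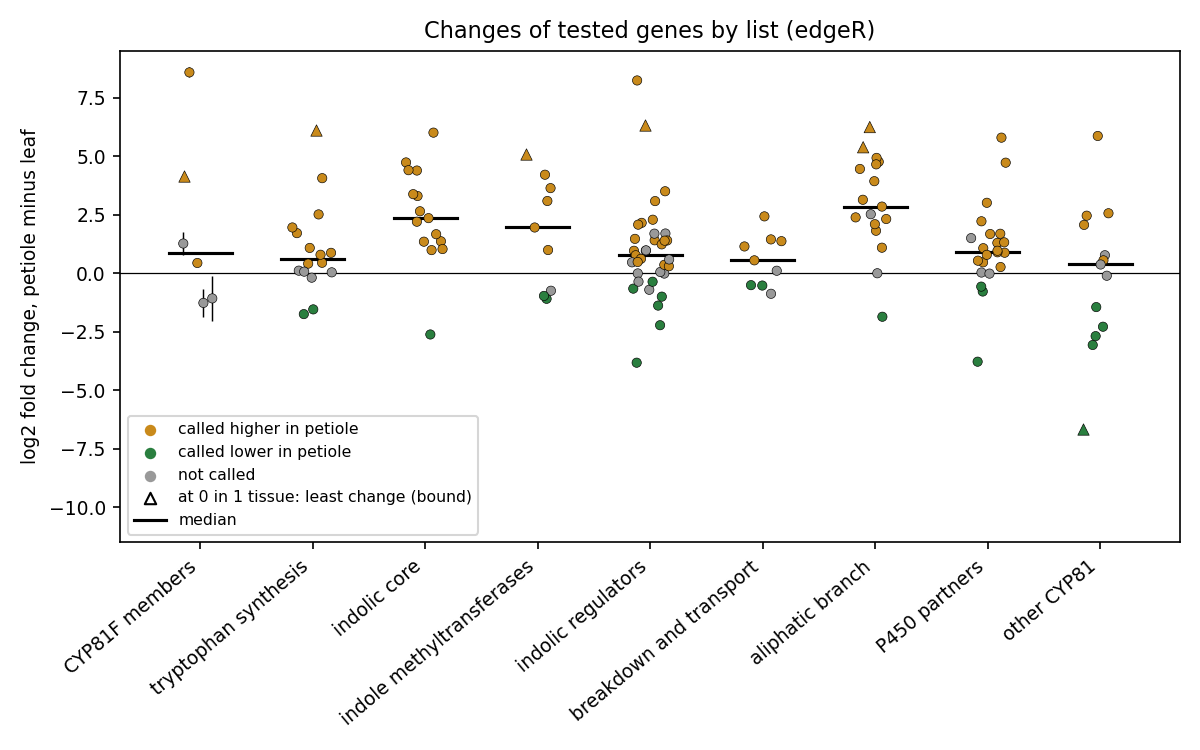
Log2 fold change (petiole minus leaf, edgeR) of each tested gene in the CYP81F group and in 8 related gene lists, coloured by call, with the median as a line, SE bars for the CYP81F members, and genes at 0 in 1 tissue as triangles at the least change that 3 counts allow. The median is 2.35 in the indolic core, 2.84 in the aliphatic branch and 0.37 in the other CYP81 genes.

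The other CYP81 genes, the nearest relatives by name, were divided. These genes, mostly described as 81D, had 5 higher and 5 lower of 13 tested (38.5% each, beside 31.4% higher and 31.0% lower over all tested genes). Their median was 0.37 on the log2 scale beside 0.85 for the 6 tested CYP81F members. Without genes at 0 in either tissue these medians were 0.46 over 12 genes (5 higher and 4 lower) and 0.43 over 5. An 81D1-like gene (BraA07g016620.3C) rose from 17.7 ± 0.974 to 104 ± 3.87 CPM (SD, n = 3), while another, BraA07g016600.3C, fell from 24.8 ± 1.40 to 3.83 ± 0.398 CPM. From the annotated transcript alone BraA07g016620.3C was not called (5.27, edgeR adjusted p = 0.069). An 81D11-like gene (BraA07g039330.3C) stood at 1.02 ± 0.139 CPM in leaf and at 0 in every petiole library. The aliphatic branch, which uses methionine in place of tryptophan, had 14 higher and 1 lower of 17 tested (82.4% and 5.88%, median 2.84). Without the 2 genes at 0 in leaf, which passed the filter only through petiole, it had 12 higher and 1 lower of 15 (median 2.52). In that branch cytosolic sulfotransferase 17 (BraA06g014220.3C) rose by 4.92 and a MYB28-like gene (BraA02g043150.3C) fell by 1.86 on the log2 scale. These lists were not tested as sets, and differences between them were not tested.

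Cell type markers moved between the same tissues. Besides the green-cell and xylem markers above, phloem markers had 5 higher and 8 lower of 17 tested (29.4% and 47.1%, beside 31.4% and 31.0% of all tested genes). Their sums were 482 to 502 CPM in leaf and 293 to 305 CPM in petiole. Guard cell markers had 4 higher and 8 lower of 16 tested (median -2.80 on the log2 scale). Of these 16, 1 was at 0 in leaf and 4 were at 0 in petiole, so they passed the filter only through the other tissue. Without them, 3 were higher and 4 lower of 11 (median -0.74). The guard cell marker sums were 32.7 to 35.2 CPM in leaf and 10.8 to 14.6 CPM in petiole. The guard cell anion channel SLAC1 and the 3 genes described as MUTE or MUTE-like were at 0 in petiole. Of the genes named for FAMA, BraA07g008990.3C was at 0 in both tissues, while the FAMA-like gene BraA01g030050.3C was detected in both. It stood at 5.618, 4.038 and 4.565 CPM in the leaf libraries and at 0.529, 0.561 and 0.674 CPM in the petiole libraries. The 1 gene that matched as a myrosin cell marker, myrosinase 4, was at 0 in every library. The part of cell composition in the CYP81F levels was not tested.

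Genes with the most similar pattern were sought by the root mean square difference of centred log2(CPM + 0.1) over the 6 libraries. For BraA01g001490.3C these were pyruvate decarboxylase 4 (BraA02g000270.3C, 0.0716), transcription factor bHLH92 (BraA06g043630.3C, 0.238) and peroxidase 22-like (BraA03g020080.3C, 0.36). Pyruvate decarboxylase 4 went from 0.0612 ± 0.058 to 48.0 ± 5.01 CPM (SD, n = 3), and bHLH92 from 0.0336 ± 0.0582 to 40.5 ± 4.7 CPM. In leaf both were below the added 0.1 CPM on average, so their match there rests partly on that value. For BraA10g015140.3C they were a 48 kDa subunit of the oligosaccharide transferase (BraA07g017270.3C, 0.0264), a CCR1 receptor-like kinase (BraA05g036830.3C, 0.031) and a clathrin assembly protein (BraA01g005770.3C, 0.0335). For BraA01g001460.3C they were a prefoldin subunit 5 (BraA09g006650.3C, 0.135), phosphoenolpyruvate carboxylase kinase 2 (BraA05g042630.3C, 0.178) and DIVARICATA (BraA05g035590.3C, 0.191). The kinase gene had only 0, 17 and 30 counts in leaf and was not called (edgeR adjusted p = 0.329).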

How the data were processed

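Per the file headers, the authors deposited estimated counts and FPKM values for each assembled transcript, and back-spliced junction read counts for each circRNA. The submitters' processing notes name HISAT2, StringTie and TopHat without versions or roles. A further 6 per-sample columns, scaled circRNA values, were not used. Estimated counts were whole in the deposited table. The deposited FPKM of 0.0001 beside a count of 0 was set to 0. A gene value is the sum over its transcripts that are identical to the annotated model, share a splice junction or are contained in it.

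edgeR 4.0.16 in R 4.3.3 (TMM, quasi-likelihood F test, tissue as the only term) was run on genes, and on isoforms, whose counts averaged 10 or more, with Benjamini-Hochberg adjustment over all features tested. The SE was taken as the absolute log2 fold change over the square root of F. The procedure was checked on simulated data. Alternatives were DESeq2 1.42.0 and its size factors, limma 3.58.1 on log2 FPKM with a pseudocount of 1 or 0.1, no filter, other transcript sums, a replicate block and each library left out. Where a tissue was at 0, the fold is a bound from 3 counts over its libraries. Floors cover counting error only. Counts without genes at 0 in 1 tissue were added after seeing the data.

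Members and lists were chosen with earlier results of these data known. The text names every member, genes among the 3 largest called rises and 3 largest called falls of each list, and the 3 nearest patterns of the 3 members with the highest mean FPKM.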

Additional observations from a re-analysis of the deposited data

Results flagged for a closer look

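The transcript MSTRG.118.1, which overlaps the 81F3 gene BraA01g001500.3C on the same strand and is left out of its gene value, held reads in every petiole library, with a mean count of 119.3. It was singled out because this signal lies outside the gene values compared and above the 3 counts that a value of 0 allows. Its leaf counts were 0, 1 and 57, so that leaf replicate 3 stood apart from the other leaf libraries. In leaf replicate 3 it held 87.7% of the counts under the gene's name, against 0% and 1.64% in the other leaf libraries and 59.2% to 92.0% in petiole. Its log2 fold change of 2.18 was not called by edgeR (adjusted p = 0.447), and was called without leaf replicate 3 (7.21, edgeR adjusted p = 0.0227). With all libraries, limma called it higher on the log2(FPKM + 1) scale (0.72, limma adjusted p = 0.0223). The median isoform was 0.35 higher in petiole on that scale. How the assembly divided reads between the overlapping transcripts was not tested.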

How the results depend on the processing

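From 2 to 4 CYP81F members were called higher over the alternatives run (2 with the annotated transcript alone, with the replicate block and without petiole replicate 1 or 2) and 0 lower. BraA01g001490.3C was called higher in every alternative, from 5.94 on the log2(FPKM + 1) scale to 8.89 without leaf replicate 1. On FPKM scales, whose median gene was 0.35 to 0.72 higher in petiole, limma called 16497 genes higher and 4257 lower (16560 and 4269 with a pseudocount of 0.1, 16465 and 4296 without the filter), so that 79.5% of calls were rises against 50.3% by edgeR. All 3 limma runs called 5 CYP81F isoforms higher, and 1 methyltransferase, 3 regulators, 0 transport genes and 1 P450 partner lower. In them BraA08g028470.3C turned to 0.22 (0.1) and 0.12 (1), BraA06g019030.3C to 0.28 and 0.27, BraA09g038300.3C to 0.22 and 0.20, and BraA01g015310.3C to 0.049 and 0.046. With annotated transcripts alone, 5065 genes were higher and 4888 lower, including 6 tryptophan synthesis genes, 9 P450 partners and 3 other CYP81 genes higher, and 3 regulators and 1 transport gene lower. BraA09g037560.3C was then -0.044 and BraA09g009070.3C -4.94. The family share of BraA01g001490.3C was then 5.05% in leaf and 93.8% in petiole. That of BraA10g015140.3C was then 34.2% in leaf and 2.4% in petiole (89.0% and 21.6% from counts in place of FPKM). Its leaf libraries were at 44.0%, 0% and 58.7% from annotated transcripts alone, and BraA01g001460.3C led in leaf replicate 2 with 35.4%. All transcripts summed gave 0.53 for BraA01g001500.3C. DESeq2 called 1 CYP81F isoform lower and 1 transport gene lower, as did edgeR without the filter for the latter. Left-out libraries gave 1 to 2 transport genes lower, and -0.34 to 0.91 for the annotated isoform of BraA10g015140.3C, negative only without leaf replicate 2. Same-numbered libraries did not deviate together (correlations -0.000422, 0.00589 and -0.00342). This cannot show whether same-numbered libraries share a plant or batch, because a shared origin need not leave a common deviation. The replicate block gave 8148 genes higher and 8166 lower, 1 CYP81F isoform higher and 1 transport gene lower. The cause of these changes was not tested. Of single-gene values, 702 kept direction and side of the threshold, 10 passed it newly, 24 no longer did and 16 reversed. At this depth 3 of the 9 members were under the filter on counts, and without petiole replicate 1 or 2 BraA08g021490.3C was under it too.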
